A study of Bos taurus with 2 samples.

Results

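SOX2-positive neural progenitors of day 25 bovine chimeric embryos were compared by the number of GFP transcripts they carried. A barcode, the tag of one droplet and nominally one cell, counted as a progenitor if it held at least 5000 unique molecular identifiers (UMI, counts of single captured transcripts), at least 1 SOX2 UMI and fewer than 3 UMI summed over the neuronal genes ELAVL3, ELAVL4 and STMN2. Of 4437 barcodes in the table, 2321 held 5000 UMI or more and 1038 were such progenitors. The GFP-high side had 5 or more GFP UMI and held 735 barcodes, 271 in replicate 1 and 464 in replicate 2. The GFP-zero side had no GFP UMI and held 67 barcodes, 29 in replicate 1 and 38 in replicate 2. The 236 progenitors with 1 to 4 GFP UMI belonged to neither side.

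Each library was made from chimeric cattle embryos, flushed from the uterus, that had taken up bovine embryonic stem cells (bESC). Tissue was dissociated with papain, sorted, and processed as 3′ droplet single-cell RNA-seq on the 10x Genomics platform. Each library therefore contributed both sides, and the design held no embryo without bESC. The labels do not say whether the replicates were different embryos, whether embryos were pooled, what the sort selected, or which cells carried the GFP construct and under which promoter, so the spread between the 2 libraries may be technical. A GFP UMI is thus not taken as a mark of donor origin, nor its absence as a mark of host origin.

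SOX2 is a transcription factor that keeps neuroepithelial cells of the early neural tube in a dividing, undifferentiated state. The neural tube is patterned from its floor plate, which secretes SHH, and from its roof plate, which secretes WNT and BMP signals, while HOX genes set position along the axis. Progenitors divide under Notch signalling until they start neuronal genes such as ELAVL3 and STMN2. In 3′ single-cell libraries the share of UMI from ribosomal protein genes is often read as a rough sign of how much cytoplasmic mRNA a barcode carries, and nuclei or damaged cells can hold little of it.

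The barcodes were chosen by their own counts of GFP, SOX2 and the neuronal genes, so those values are given without a test. GFP-high barcodes had a median of 18 GFP UMI in replicate 1 and 19 in replicate 2, or 2150 and 1986 counts per 1e6 UMI (CPM). SOX2 had a median of 3 UMI in the GFP-high barcodes of both libraries, and of 2 and 1.5 UMI in the GFP-zero barcodes. A single SOX2 UMI was thus all that many GFP-zero barcodes had: 17 of 29 and 19 of 38 had at least 2. For scale, 30 barcodes rich in globin, a red cell product, had at most 1 SOX2 UMI and at most 3 GFP UMI at a median depth of 25822 UMI, and 13 of them had no GFP UMI. The progenitor filament gene NES was detected in 713 of 735 GFP-high and 54 of 67 GFP-zero barcodes, so most barcodes on both sides carried a further progenitor transcript.

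The sides differed in their content of ribosomal protein transcripts. The median share of UMI from the 78 ribosomal protein genes was 1.75% in the GFP-zero barcodes of replicate 1 and 1.78% in those of replicate 2. In the GFP-high barcodes it was 17.7% and 22.2%. A share under 5% was found in 59 of 67 GFP-zero barcodes (88.1%, exact 95% interval 77.8 to 94.7%) and in 115 of 735 GFP-high barcodes (15.6%, 13.1 to 18.5%). Such intervals cover counting error only.

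The ribosomal protein share was higher in each bin of GFP count up to 20 to 39 UMI. In replicate 1 the medians were 1.75% without GFP, 2.42% at 1 to 4 UMI, 5.45% at 5 to 9, 12.8% at 10 to 19, 23.6% at 20 to 39 and 27.5% at 40 or more. Replicate 2 gave 1.78%, 2.45%, 6.61%, 20.6%, 25.4% and 23.7% in the same bins. The change in share lay on both sides of the threshold of 5 GFP UMI rather than at it: barcodes with 4 GFP UMI had medians of 4.34% and 3.65% (14 and 17 barcodes), and those with exactly 5 had 5.02% and 4.62% (17 and 28 barcodes).

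**Figure D1:**
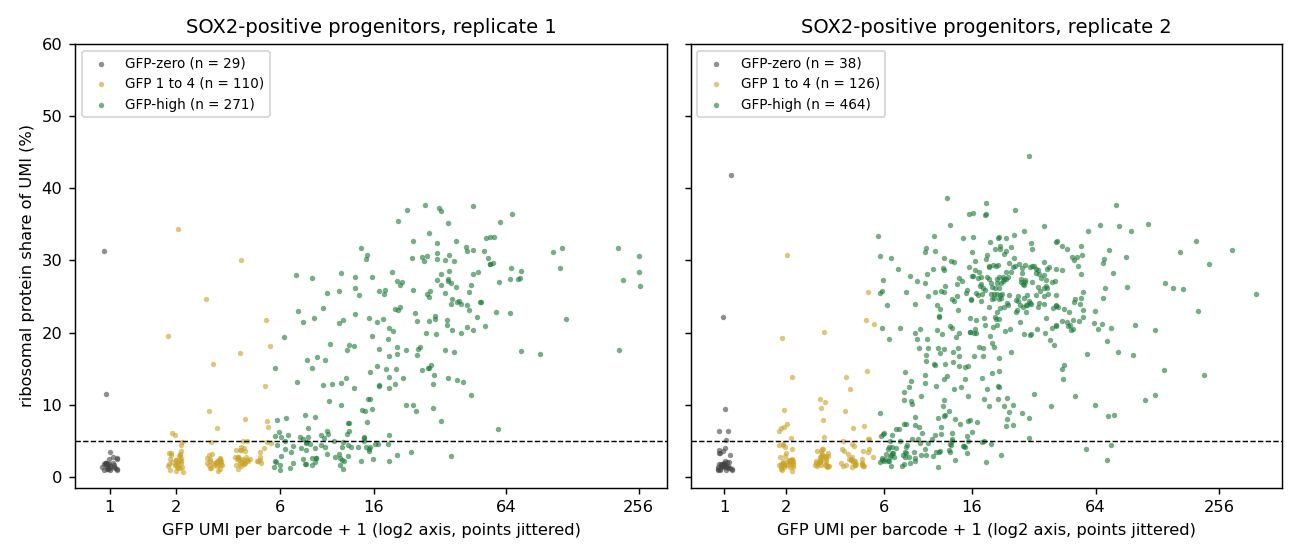
Each point is a SOX2-positive progenitor barcode, plotted by its GFP UMI plus 1 (log2 axis, jittered) and the share of its UMI from ribosomal protein genes (%), with one panel per library. Most GFP-zero points lie under the dashed line at 5% (27 of 29 and 32 of 38), while the GFP-high points spread from under 1% to over 40% with medians of 17.7% and 22.2%.

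Read the other way, 8 of the 672 progenitors with a ribosomal protein share of 5% or more had no GFP UMI (1.19%, 0.515 to 2.33%). Among the 366 progenitors under 5% the count was 59 (16.1%, 12.5 to 20.3%), and among the 52 under 1.5% it was 24 (46.2%, 32.2 to 60.5%). In SOX2-negative barcodes of 5000 UMI or more the gap was narrower: 98 of 453 with a share of 5% or more had no GFP UMI (21.6%), against 97 of 308 under 5% (31.5%). A high ribosomal protein share therefore occurred without GFP outside the progenitors, as in 99 barcodes with 50 or more UMI of mesenchyme genes, of which 56 had no GFP UMI and whose median share was 27.2%.

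Other measures of RNA content moved with GFP as well. GFP-zero barcodes had a median of 7481 and 6825 UMI, against 8676 and 9023 in GFP-high barcodes. The number of genes detected per UMI was 0.47 and 0.49 against 0.41 and 0.38. The mitochondrial share of UMI was 0.49% and 0.52% in GFP-zero barcodes, against 0.24% and 0.19%. Their part in the gene differences that follow was examined only through the matched comparisons given with them, and depth, RNA quality and GFP level cannot be fully told apart in these cells.

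**Figure D2:**
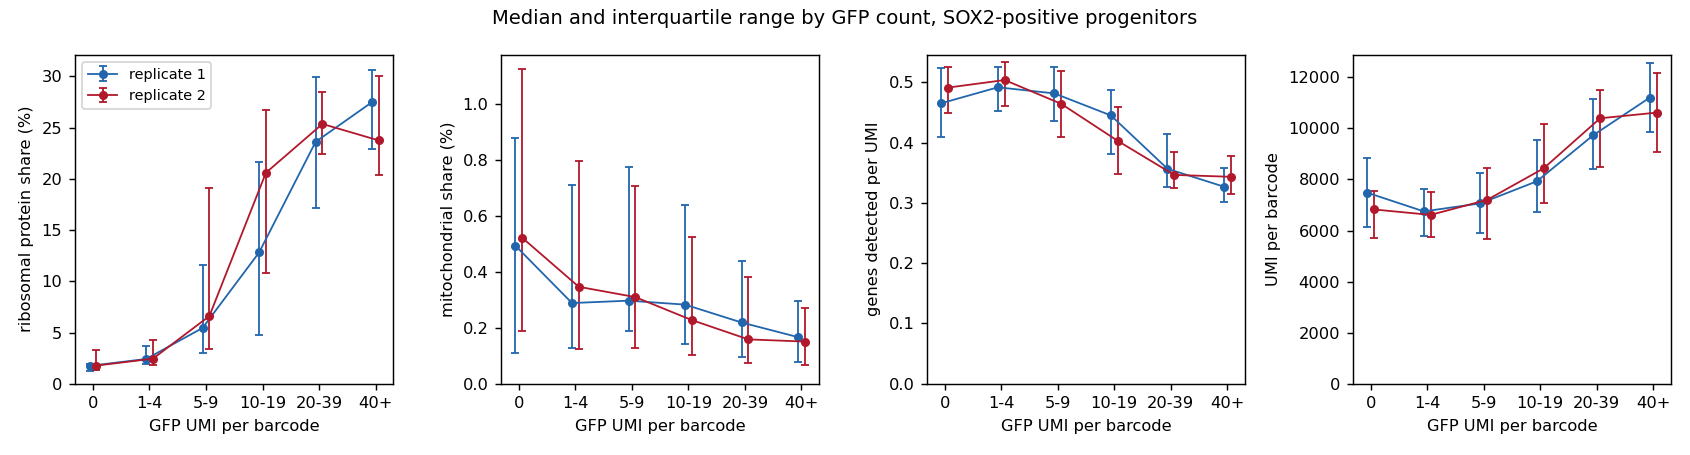
Medians with interquartile ranges of total UMI, ribosomal protein share, mitochondrial share and genes per UMI are plotted by bin of GFP count, one line per library. The median ribosomal protein share is 1.75% and 1.78% without GFP and 27.5% and 23.7% at 40 or more GFP UMI.

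A few GFP-zero barcodes carried transcripts of other cell types, and all 4 of them were in replicate 2. One held 54907 UMI, of which 51.8% were globin. The others held 184 UMI of mesenchyme markers, 59 UMI of trophoblast markers and 210 UMI of KCNIP4, a potassium channel subunit. They set 3 of the largest differences in the table. KCNIP4 was at 8.15 and 7.55 CPM in GFP-high sums and at 3.77 and 648 CPM in GFP-zero sums, and HBE4, an embryonic globin, stood at 89.2 and 105 against 67.8 and 11985 CPM. COL1A1, a collagen chain of mesenchyme, had 22.6 and 28.0 against 15.1 and 324 CPM. In all 3 genes replicate 1 showed no such excess in GFP-zero sums. Of the other mesenchyme markers tested, COL1A2 was lower too (-1.17), while TWIST1 (3.44), DCN (1.64) and COL3A1 (0.95) were higher. COL5A1 and PRRX1 were not called. Over all barcodes 19.5% of all genes tested were higher and 12.6% lower. Removing barcodes of other types from both sides left 266 and 459 GFP-high and 29 and 34 GFP-zero barcodes. HBE4 and COL1A1 then turned from log2 fold changes of -3.62 and -2.54 to 0.83 and 0.79. Both genes were among those that marked the removed barcodes, so this turn follows from the removal. That fit called 31.1% of 10685 genes, 19.7% higher and 11.4% lower. The marker sums and calls that follow are over all barcodes, with the 4 barcodes of other types still in the GFP-zero sum of replicate 2. Among the markers of the remaining types, summed levels of endothelial genes stayed at or under 25.8 CPM and those of macrophage genes at or under 35.9 CPM in all 4 sums. Neuron marker sums were 738 and 782 CPM in GFP-high and 570 and 532 CPM in GFP-zero sums (unscaled), with GAP43 and SYT1 higher of 7 tested. The share over all genes for this and the following lists is 19.5% higher and 12.6% lower, and each list rests on few genes. Trophoblast markers summed to 509 and 492 against 337 and 461 CPM, with GATA3, KRT8 and KRT18 higher of 4 tested. The barcode with 59 UMI of trophoblast markers was part of the 461 CPM. Liver or yolk sac markers summed to 290 and 363 against 89.8 and 232 CPM, with APOA1 and TTR higher of 3. Heart muscle markers summed to 93.0 and 79.4 against 144 and 268 CPM, with TNNI1 higher (1.43) and ACTN2 lower (-1.05) of 2 tested. Surface ectoderm markers summed to 124 and 107 against 76.3 and 129 CPM, with KRT19 higher (1.03) as the 1 tested, and the macrophage marker CD68 was lower (-2.46) as the 1 tested of its list. Neural crest markers summed to 13.2 and 14.4 against 4.49 and 58.1 CPM. Whether these transcripts came from mixed droplets or from the progenitors themselves was not tested.

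Counts were summed per side and library and fitted with edgeR's quasi-likelihood test, with library as a term and TMM scaling, which sets the typical gene to no change. Of 10670 genes tested, 2083 were higher and 1342 lower in GFP-high cells at an adjusted p under 0.05, or 32.1% in all (19.5% higher and 12.6% lower). The 4 sums left 1 residual degree of freedom, and the fit took the spread almost wholly from the trend over all genes, so a gene whose libraries disagreed could still pass, as KCNIP4 did. The median log2 fold change over all tested genes was 0.01. With scaling to library totals alone that median moved to -0.34 and the counts to 1545 higher and 2828 lower, so every change here is relative to the typical gene. DESeq2 called 758 higher and 62 lower, so the number of genes lower depended more on the tool than the number higher. It gave no adjusted p to 2483 of the 10670 genes. Levels below are TMM-scaled CPM unless stated, in the order replicate 1, replicate 2, and can be compared between sides but not between genes.

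When equal numbers of barcodes from each side were drawn within bands of total UMI (29 and 37 a side), 5892 genes could be tested, of which 741 were higher (12.6%) and 95 lower (1.61%), or 14.2% in all. Of the 2385 genes called over all barcodes that could be tested there, 2371 kept their direction, and their median log2 fold change in that direction was 0.99 against 1.09.

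Matching on ribosomal protein share had a larger effect, and this comparison was chosen after the shares had been seen. With only barcodes under 5% on both sides (56 and 59 GFP-high, 27 and 32 GFP-zero, at similar median depths of 7221 and 6632 against 7481 and 6667 UMI), 173 of 6566 genes were higher and 139 lower, or 4.75% (2.63% higher and 2.12% lower). Of the 3423 genes first called, leaving out those that chose the barcodes, 2224 could be tested there; 1889 kept their direction, 257 were called again in it, and their median log2 fold change in the first direction went from 1.03 to 0.39. The share was still unequal under this limit, with medians of 3.14% and 3.31% in GFP-high against 1.61% and 1.63% in GFP-zero barcodes, and 51 of the 311 genes called apart from GFP were ribosomal protein genes.

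With the share under 3% on both sides, 17 genes were higher and 49 lower of 5056 (1.31%, or 0.336% and 0.969%). When barcodes were matched on both ribosomal protein share and depth, which left 15 and 19 a side, edgeR's test called 0 of 3822 genes, with 226 at an unadjusted p under 0.05. GFP, on which the barcodes were selected, did not itself pass there (adjusted p 0.119), so a count of 0 in this match does not show that no gene differed. Depth matching with the same number of barcodes called 326 genes higher and 20 lower of 3542 (9.77%, or 9.20% and 0.565%). The median prior degrees of freedom, the fit's weight on the trend over all genes, were 11.7 there. With share and depth matched they were 4.77. Power thus differed between these fits at the same number of barcodes, and their counts of calls do not measure the effect of matching alone. Of first-called genes, 1013 of 1589 kept their direction in the match on share and depth, with a median of 0.16 against 0.89, while 1511 of 1610 did so in the depth match of equal size, with 0.88 against 0.93. GFP-zero barcodes with a share of 5% or more numbered 8, of which 3 carried another cell type's transcripts, and a comparison within ribosome-rich progenitors was not run on so few barcodes.

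**Figure D3:**
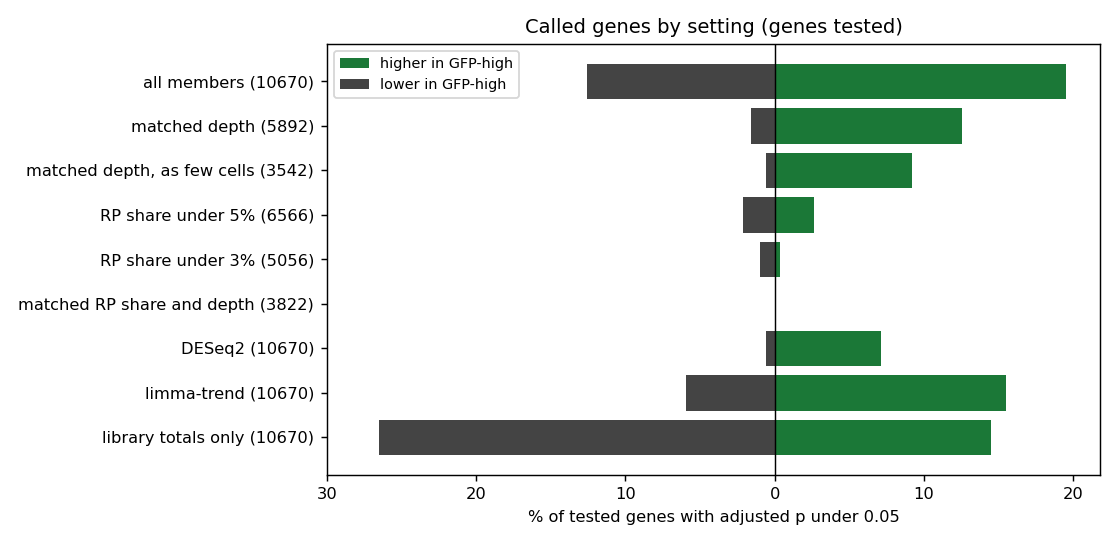
Bars give the percentage of tested genes with an adjusted p under 0.05, higher (right) or lower (left) in GFP-high cells. The number of genes tested is in parentheses. The test is edgeR's for each choice of barcodes and for library totals, and DESeq2 or limma-trend in the bars so named. The bars shrink from 32.1% of genes over all barcodes to 14.2% at matched depth, 4.75% with ribosomal protein shares under 5% and 0 with share and depth both matched. The fits also differ in genes tested and in weight on the trend over all genes, so the bars do not show matching alone.

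Genes of protein synthesis and energy metabolism were higher as groups, where 19.5% of all genes tested were higher and 12.6% lower. All 77 ribosomal protein genes tested were higher, with a median log2 fold change of 2.28 against 0.01 over all genes. RPS7, a small subunit protein, had 4668 and 5460 CPM in GFP-high against 478 and 1098 CPM in GFP-zero sums (log2 fold change 2.79, SE 0.74). Nuclear-encoded subunits of oxidative phosphorylation were higher in 35 of 36 tested, with a median of 2.10. ATP5MC1, of the ATP synthase rotor, stood at 135 and 176 against 18.8 and 15.4 CPM (3.20, SE 0.36), and COX8A, of cytochrome c oxidase, at 226.8 and 251 against 33.9 and 52.4 CPM (2.45, SE 0.28). Among glycolytic genes 14 of 20 were higher, with a median of 2.20. The enolase ENO1 had 2206 and 2695 against 181 and 234 CPM (3.56, SE 0.52), and TPI1, which interconverts triose phosphates, had 977 and 1197 against 94.2 and 120.3 CPM (3.34, SE 0.34). In every named gene of these groups both GFP-high sums lay above both GFP-zero sums.

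The same groups had smaller differences among barcodes with ribosomal protein shares under 5%, where 2.63% of all genes tested were higher and 2.12% lower. There 51 of 77 ribosomal protein genes were higher, with a median of 0.84. These genes make up the share itself, so their smaller difference follows from the limit and the match. Of 28 oxidative phosphorylation genes tested 5 were higher, with a median of 0.78, and of 15 glycolytic genes 5 were higher, with a median of 0.78 against -0.01 over all genes. Fewer genes of both lists could be tested here than over all barcodes, so the medians are not over the same genes. GAPDH had 373 and 395 against 87.7 and 141 CPM (unscaled) there, a log2 fold change of 1.75 (SE 0.26), where over all barcodes it was 2.97. In the match on share and depth the medians of these 3 groups were -0.37, 0.34 and 0.36.

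**Figure D4:**
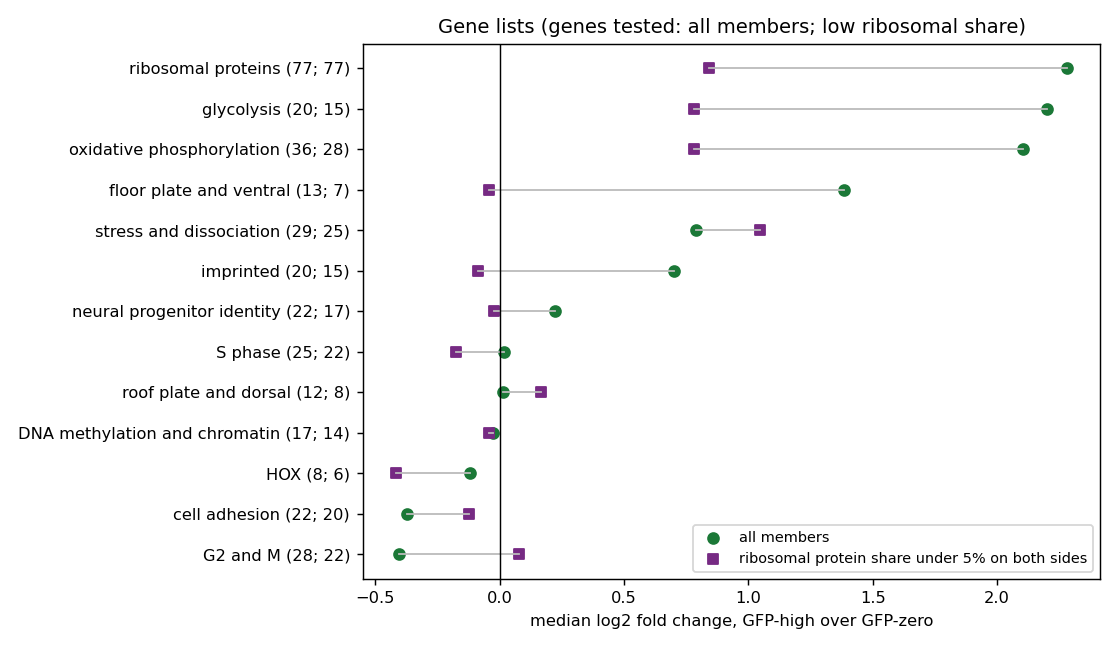
Points give the median log2 fold change (GFP-high over GFP-zero) of each gene list, over all barcodes and among those with a ribosomal protein share under 5%; the numbers of genes tested in each are in parentheses. Ribosomal protein genes, which make up the share that was limited, fall from 2.28 to 0.84. The floor plate and ventral list falls from 1.39 to -0.04, while stress and dissociation genes have 0.79 and 1.05.

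Of 22 progenitor identity genes tested, 6 were higher and 3 lower, with a median of 0.22, which is near the share over all genes (19.5% higher and 12.6% lower). VIM, an intermediate filament of neuroepithelium, had 2769 and 3517 CPM in GFP-high against 354 and 305 CPM in GFP-zero sums (3.25, SE 0.58, edgeR adjusted p 4e-07). NES, its filament partner, had 1041 and 1048 against 380 and 475 CPM (1.29, SE 0.33), FABP7, a radial glial fatty acid carrier, 95.1 and 115.5 against 26.4 and 9.25 CPM (2.63, SE 0.39), and the Notch target HES5 119 and 125 against 75.3 and 52.4 CPM (0.95, SE 0.28). ZIC5 and POU3F2, both transcription factors of the early neural plate and tube, were higher by 1.30 and 1.31. The lower genes were PAX3, a dorsal neural tube transcription factor, HMGA2, a chromatin protein of early progenitors, and the RNA-binding gene MSI2.

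PAX3 had 95.5 and 96.2 CPM in GFP-high against 328 and 191 CPM in GFP-zero sums (-1.39, SE 0.21). The share of barcodes with a PAX3 UMI was 29.5% and 24.1% in GFP-high and 69.0% and 55.3% in GFP-zero barcodes, or 24.4% and 19.8% against 55.2% and 44.7% after each barcode was thinned to 5000 UMI. Among mesenchyme-marked barcodes, which should lack PAX3-positive neural cells, 3 of 99 had a PAX3 UMI at a median depth of 12771 UMI. With ribosomal protein shares under 5% PAX3 was found in 28 of 56 and 23 of 59 GFP-high barcodes, against 19 of 27 and 20 of 32 GFP-zero barcodes (70.4% and 62.5%), and the fold change of -0.54 did not pass the test (adjusted p 0.196). VIM (1.16) and NES (0.76) were higher and HMGA2 (-0.78) and MSI2 (-0.80) lower there as well.

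Of 13 floor plate and ventral genes tested, 6 were higher in GFP-high sums and 1 lower, with a median of 1.39. Over all genes 19.5% were higher and 12.6% lower. SHH, the ventral morphogen, had 142 and 149 CPM against 0 and 21.6 CPM (3.63, SE 0.40), from 845 UMI in GFP-high and 7 in GFP-zero sums. DESeq2 did not call SHH (adjusted p 0.131). FOXA2, a transcription factor that induces floor plate, had 410 and 443 against 124 and 160 CPM (1.58, SE 0.24), and the axon guidance ligand NTN1 98.3 and 107 against 15.1 and 61.7 CPM (1.39, SE 0.32). FERD3L and NKX2-2, transcription factors of ventral cells, rested on 2 and 1 UMI in GFP-zero sums against 179 and 68, CPM ratios of 7.16 (counting interval 1.95 to 59.5) and 5.44 (0.944 to 218). HHIP, which binds and limits hedgehog ligands, was lower at 89.6 and 58.8 against 203 and 170 CPM (-1.35, SE 0.23).

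An SHH UMI was present in 33.6% and 40.1% of GFP-high barcodes, and in 0 of 29 and 4 of 38 GFP-zero barcodes (0% with an upper limit of 11.9%, and 10.5%). Thinned to 5000 UMI, the GFP-high shares were 27.7% and 29.5%. With ribosomal protein shares under 5% they were 12.5% and 11.9%, against 0 of 27 and 4 of 32 GFP-zero barcodes. For FOXA2 the shares over all barcodes were 66.8% and 73.9% against 37.9% and 44.7%, and with low ribosomal protein shares the counts were 28 of 56 and 27 of 59 against 11 of 27 and 15 of 32. In mesenchyme-marked barcodes 3.03% had an SHH UMI and 10.1% a FOXA2 UMI. Of the 7 floor plate and ventral genes tested in the low-share barcodes, edgeR and limma each called 0, with 1 at an unadjusted p under 0.05. Their median was -0.04, and FOXA2 was at 0.53 (SE 0.25, edgeR adjusted p 0.274).

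Of 12 roof plate and dorsal genes tested, 3 were higher and 1 lower, with a median of 0.01, also near the share over all genes (19.5% and 12.6%). RSPO2, a secreted amplifier of WNT signalling, had 58.0 and 45.6 CPM against 7.53 and 0 CPM. Its 291 GFP-high UMI came from 29 barcodes, and the 3 richest held 36.4% of them. With low ribosomal protein shares RSPO2 was again higher (5.06, SE 0.78), yet 7 of 115 GFP-high barcodes had it and 3 of these held 93.3% of its UMI. MSX1, a target of BMP signalling, had 91.0 and 84.2 against 52.7 and 27.8 CPM (1.16, SE 0.33) and was also higher with low shares (1.33, SE 0.41). BMP6, a dorsal ligand, was lower at 7.24 and 5.88 against 26.4 and 15.4 CPM (-1.63, SE 0.60).

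Position along the axis was described by HOX and OTX2 transcripts. One or more HOX UMI was found in 47.6% and 51.1% of GFP-high and 24.1% and 44.7% of GFP-zero barcodes, and in 32.5% and 35.8% against 20.7% and 34.2% after thinning. OTX2, a forebrain and midbrain gene, was found in 7.38% and 6.03% against 10.3% and 5.26%. The exact intervals of the sides overlapped for both, in both libraries, though overlap is not a test of a difference. With ribosomal protein shares under 5% a HOX UMI was found in 29 of 56 and 29 of 59 GFP-high barcodes. The GFP-zero counts under that limit were 6 of 27 and 14 of 32. Of 8 genes of the HOX list tested, HOXB2 was higher and the HOX cofactors MEIS1 and PBX3 lower. Of the 4 anterior genes and the 3 intermediate dorsoventral genes tested, edgeR, DESeq2 and limma called 0, with 0 and 1 at an unadjusted p under 0.05.

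Of 28 genes of the G2 and M phases 9 were lower and 1 higher, with a median of -0.40. Over all genes 12.6% were lower and 19.5% higher. NDC80, of the kinetochore, had 108 and 89.2 against 226 and 225 CPM (-1.20, SE 0.21), STIL, a centriole assembly gene, 38.9 and 24.6 against 117 and 123 CPM (-1.96, SE 0.29), and the mitotic kinase TTK 40.3 and 39.7 against 121 and 74.0 CPM (-1.24, SE 0.30). The exception was UBE2C, a ubiquitin-conjugating enzyme of mitotic exit, with 93.3 and 116 against 41.4 and 58.6 CPM (1.06, SE 0.30). Of 25 S phase genes 7 were higher and 4 lower, near the 19.5% and 12.6% over all genes, with MCM5, of the replicative helicase, at 143 and 134 against 26.4 and 46.3 CPM and DTL, of the replication-linked ubiquitin ligase, at 148 and 114 against 267 and 299 CPM. With ribosomal protein shares under 5%, 0 of 22 G2 and M genes were called by edgeR or limma, with 2 at an unadjusted p under 0.05, and their median was 0.08. In S phase POLA1, a DNA polymerase subunit, was lower (-0.96, SE 0.25) as 1 of 22.

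Of 29 stress and dissociation genes tested over all barcodes, 15 were higher, 2 lower (ATF3 and SESN2) and 12 not called, with a median of 0.79. Over all genes 19.5% were higher and 12.6% lower. With shares under 5%, 2.63% of all genes were higher and 2.12% lower. There 11 of 25 stress genes were higher, 0 lower and 14 not called, with a median of 1.05. In the match on share and depth their median was 0.36, with FOS at -0.34, JUN at 0.09 and DUSP1 at -0.53. With shares under 5% FOS, an immediate early transcription factor, had 430 and 492 CPM (unscaled) in GFP-high barcodes. GFP-zero barcodes under that limit had 122 and 127 CPM (1.89, SE 0.25, edgeR adjusted p 6e-11). JUN, its partner, had 1099 and 1442 against 541 and 494 CPM (1.29, SE 0.20), ATF4, of the integrated stress response, 559 and 560 against 297 and 197 CPM (1.19, SE 0.22), and the phosphatase gene DUSP1 84.5 and 104 against 19.5 and 28.2 CPM (1.97, SE 0.49). Over all barcodes DUSP1 was not called (0.42, edgeR adjusted p 0.208), and its GFP-zero sum of 148 CPM in replicate 2 lay above its GFP-high sum. Over all barcodes FOS was uneven in GFP-zero sums, at 117 and 373 CPM against 352 and 390 CPM, and 3 barcodes held 68.4% of its GFP-zero UMI. Its log2 fold change was 0.68 there, and 1.76 (SE 0.20, edgeR adjusted p 3.1e-05) without the barcodes of other types.

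By the rule for named genes, applied within low-share barcodes, the largest rises were in RSPO2, CHRM3, BTG2, H2AX, CCN2, SERTAD1, COL25A1, ID1, APOE, TOMM6, EMD and LSM7. As for RSPO2, 3 barcodes held most of the GFP-high UMI of CHRM3 (67.4%) and COL25A1 (66.1%). ID1, a BMP target that blocks neurogenic factors, had 985 and 1385 CPM in GFP-high against 258 and 249 CPM in GFP-zero barcodes (2.21, SE 0.22, adjusted p 7e-20), and was 2.64 over all barcodes. ID3, its paralogue, had 495 and 550 against 132 and 132 CPM (1.98, SE 0.25). CCN2, a matricellular protein and a target of YAP signalling, had 383 and 216 against 43.9 and 56.4 CPM (2.53, SE 0.32), from 82 of 115 GFP-high barcodes. ID2 (1.10), ID4 (0.83) and CCN1 (1.49), relatives of these genes, were higher too, and like ID3 were chosen after their values were seen. ID1, ID3, CCN2, FOS and JUN were still called with shares under 3%. In each of these genes both GFP-high values lay above both GFP-zero values.

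The largest falls in low-share barcodes by that rule were in GABRG3, NTM, UGT8, GPC3, SYT13, NLGN4X, ADAM23, ZBTB7C, ROBO2, CCDC14, CDC7 and KDM4C. NTM, a GPI-anchored adhesion protein, had 32.3 and 44.8 CPM against 224 and 155 CPM (-2.27, SE 0.35). ROBO2, a receptor for SLIT ligands, had 124 and 117 against 526 and 301 CPM (-1.74, SE 0.24), NLGN4X, a synaptic adhesion protein, 64.7 and 32.3 against 239 and 150 CPM (-2.01, SE 0.33), and the receptor kinase gene ERBB4, chosen after its values were seen, 1005 and 783 against 2018 and 2952 CPM (-1.46, SE 0.20). GABRG3, a GABA receptor subunit, was at a log2 fold change of -2.39, with 3 barcodes holding 66.7% of its GFP-zero UMI. GPC3, a glypican, was at -2.23. Of the fixed list of adhesion genes 5 of 20 were lower with low shares, among them NCAM1 at 234 and 256.2 against 517 and 569 CPM (-1.15, SE 0.21) and the cadherin CDH20 at 77.1 and 74.6 against 190 and 174 CPM (-1.26, SE 0.31). The protocadherin PCDH7 was the 1 higher. Of all genes tested with low shares 2.12% were lower and 2.63% higher. EPHA3 passed the test although its values went opposite ways in the libraries, 34.8 and 9.95 against 14.6 and 150 CPM. Over all barcodes 7 of 22 adhesion genes were lower and 2 higher, against 12.6% and 19.5% over all genes. NTM (-1.73), ROBO2 (-1.12) and NLGN4X (-1.35) were lower over all barcodes too.

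**Figure D5:**
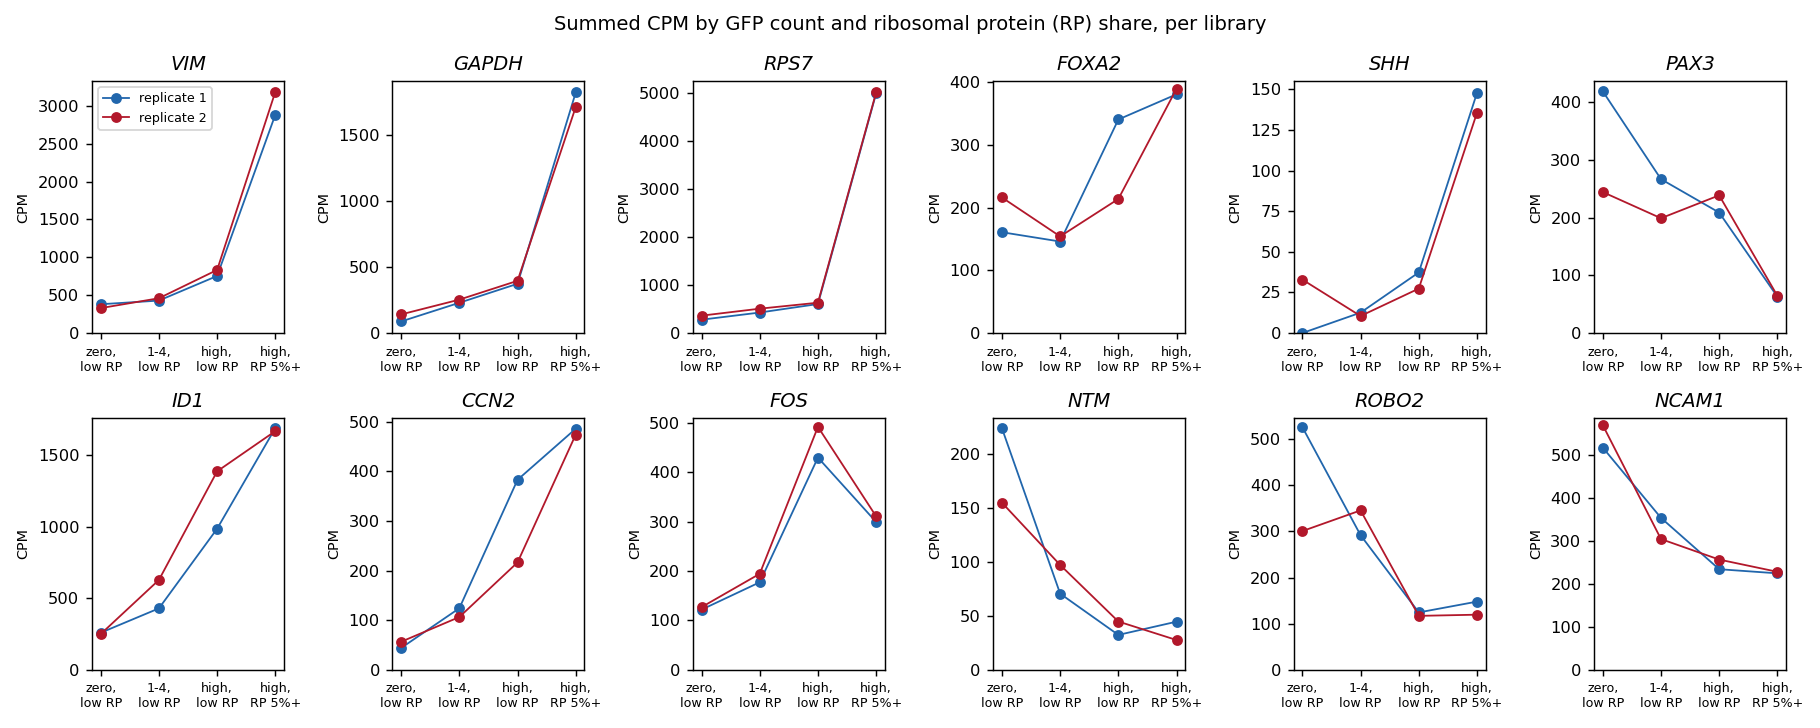
Summed CPM per library of named genes is plotted for GFP-zero, GFP 1 to 4 and GFP-high barcodes with ribosomal protein shares under 5%, and for GFP-high barcodes at 5% or more. ID1 is at 258 and 249 CPM in GFP-zero and 985 and 1385 CPM in GFP-high barcodes of low share, and ROBO2 at 526 and 301 against 124 and 117 CPM.

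The genes with the largest rises and falls over all barcodes, by the rule for named genes, were mostly scarce on one side. Among the 12 rises, CALML4, a calmodulin-like gene, had 959 UMI in GFP-high and 1 in GFP-zero sums, a CPM ratio of 76.7 (counting interval 13.7 to 3032). NDN, an imprinted growth suppressor of neural cells, had 433 against 2 (17.3, 4.76 to 143), PCSK1N, an inhibitor of a prohormone convertase, 1531 against 9 (13.6, 7.15 to 29.8), and the G protein subunit gene GNB2 1278 against 8 (12.8, 6.46 to 29.7). CATHL5, MAN2B1, ZNF593, EXOSC4, CD2BP2, BNIP3, RSPO2 and ZNHIT1 made up the rest, each with 1 to 4 GFP-zero UMI. The falls were smaller: CRTAC1, KIF18B, ELAVL2, STPG4, GBX1, L3MBTL1, STIL, SHCBP1, KLF5, H4C14, ADAMTS9 and SLC39A8 had log2 fold changes from -2.27 to -1.79. ELAVL2, a relative of the neuronal genes used to choose the barcodes, had 26.3 and 18.2 against 121 and 80.2 CPM (-2.17, SE 0.35), while 1 barcode held 28 of the 40 GFP-zero UMI of ADAMTS9. Without the barcodes of another type ADAMTS9 was at -0.23 (edgeR adjusted p 0.763) and SLC39A8 at -1.15 (0.0961), so neither was called, and the other 10 falls were. With low ribosomal protein shares ADAMTS9 was too scarce to be tested and the other 11 falls were not called, and of these rises RSPO2 alone was abundant enough to be tested.

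Of the imprinted genes, 8 of 20 were higher and 2 lower, against 19.5% and 12.6% over all genes, with a median of 0.70. Among those higher was SNRPN at 107 and 131 against 37.7 and 30.8 CPM (1.81, SE 0.32). With low shares 0 of 15 were called by edgeR or limma, with 2 at an unadjusted p under 0.05 and SNRPN at 0.10. Of DNA methylation and chromatin genes 4 of 17 were higher and 3 lower, near the 19.5% and 12.6% over all genes. The largest rise was in the corepressor TRIM28 at 215 and 222 against 18.8 and 58.6 CPM (2.46, SE 0.29). With low shares edgeR and limma called 0 of 14 genes of this list, with 1 at an unadjusted p under 0.05. Pluripotency genes gave 1 of 6 in each direction, DNMT3A higher and SALL4 lower. Among newborn neuron genes TUBB3 was higher as 1 of 7. Both lists were near the 19.5% higher and 12.6% lower over all genes. TTR, a carrier protein made by endoderm, had 197 UMI in GFP-high and 0 in GFP-zero sums, at least 5.25-fold higher in CPM when 3 UMI over the GFP-zero side are taken as the floor.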

How the data were processed

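The authors deposited raw UMI counts of 17846 genes in 4437 barcodes of 2 libraries (11182089 and 15427708 UMI). The submitters' processing notes list the build bosTau9 with Seurat 4.3.0, R 4.1.2 and Cell Ranger. Filters on barcodes before deposit are not given in the sources used here, nor is a Cell Ranger version. Each column's library followed from the sample number that starts its name, and 0 columns belonged to other samples. The libraries shared 6 barcode sequences, 0 of them among the barcodes compared. No doublet caller was run, so doublets remain possible, and no sequences or coordinates were used.

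Counts were summed per side and library (222765 to 4244997 UMI per sum) and fitted under R 4.3.3 with library as an additive term by edgeR 4.0.16 (filterByExpr by side, TMM factors, robust glmQLFit). Benjamini-Hochberg adjustment ran over all genes tested, with calls at 0.05. The 4 sums leave 1 residual degree of freedom. Over all barcodes and with shares under 5%, the fit takes its spread almost wholly from the trend over all genes, not from each gene's own libraries. The median prior degrees of freedom, the weight on that trend, were infinite in both. They were 8.82 at matched depth, 14.4 with shares under 3%, 11.7 in the smaller depth match and 4.77 with share and depth matched. Each SE given is the absolute log2 fold change divided by the square root of the edgeR test's F statistic, so it carries that test's spread. DESeq2's own SE over all barcodes was larger for SHH (2.07 against 0.40) and smaller for ID1 (0.32 against 0.44). DESeq2 1.42.0 and limma 3.58.1 were alternatives. GFP, SOX2, ELAVL3, ELAVL4 and STMN2 chose the barcodes and are described, not counted as results. On simulated counts the test recovered 9% of genes changed 2-fold and 61% of those changed 4-fold over all barcodes (10437 genes), and 25% and 86% with low ribosomal protein shares (6521 genes, 7 false calls). The simulation gave every gene the same dispersion, set no difference between libraries and changed only a small set of well-counted genes. Its rates need not hold for the real sums.

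Both libraries hold both sides, so library enters as a block: the 2 sums of one library come from the same cell suspension.

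Members, lists and markers were chosen with earlier results of these data known. Named genes were the 12 largest rises and 12 largest falls among called genes of one direction in both libraries and in each band of total UMI with at least 10 barcodes a side, at 50 CPM or more on the higher side. The rule was passed by 1300 rises and 1080 falls. It was carried over to the low-share comparison after the data were seen, and other genes named there were chosen after their values were seen. The limits on ribosomal protein share, the removal of barcodes of other types and the scaling to totals were also added after seeing the data. Some genes of the lists are counted in them but not reported by name here.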

Additional observations from a re-analysis of the deposited data

How the results depend on the processing

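Of 82 genes followed over all barcodes, 79 kept direction and call at 10 or more GFP UMI and at 1000 GFP CPM, 76 at 3 or more, 71 with limma-trend, and 49 of 77 with DESeq2. Fits with the replicate block were the main ones; with no replicate block 2031 genes were higher and 1261 lower. The counts moved by over 1.5 times as follows, higher then lower, against 2083 and 1342: matched depth 741 and 95; 7500 UMI or more 262 and 50; neuron genes at 0 UMI 1317 and 538; DESeq2 758 and 62; HOX-positive, OTX2-negative barcodes 747 and 156; without SHH, FOXA2, RSPO2 or RSPO3 UMI 95 and 8; ribosomal protein share under 5% 173 and 139, under 3% 17 and 49; share and depth matched 0 and 0; depth matched with as few barcodes 326 and 20. For genes lower alone, thinning to 5000 UMI gave 854, SOX2 at 2 UMI or more 706, limma-trend 632, no filter 798 and library totals 2828. The share of calls that were higher was 60.8%, and 92.4% with DESeq2, 72.3% with limma-trend, 72.2% with no filter and 35.3% with library totals. Many of these settings leave fewer barcodes; beyond that the cause was not tested. With shares under 5%, 173 higher and 139 lower became 21 and 11 with DESeq2, 59 and 36 after thinning, and 17 and 49 at 3%. DESeq2 gave no adjusted p to 5346 of the 6566 genes there, so these could not be called. With no replicate block 143 and 98 were called.

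Directions reversed as follows, in log2 fold change. Share under 5%: NDC80 0.029, ATF3 0.45, HBE4 0.81. Under 3%: STPG4 0.25, L3MBTL1 0.22, UHRF1 -0.45, ATF3 0.86, HBE4 0.74. Share and depth matched: STIL 0.32, NES -0.013, RPS7 -0.069, RPL8 -0.045, ALDOA -0.072, NDC80 0.25, PEG10 -0.48, FOS -0.34, HBE4 0.59. RPS7 and RPL8 are part of the share that was matched. Depth matched with few barcodes: NDC80 0.37. HOX-positive only: RSPO3 -1.05, FOS -0.053, CDH20 0.34, HBE4 0.19. Without ventral and R-spondin barcodes: NDC80 0.047, ATF3 0.31. At 7500 UMI: FOS -0.20. Without other-type barcodes, which HBE4 and COL1A1 helped to mark: HBE4 0.83, COL1A1 0.79. GFP-zero side without other-type barcodes or those of 5% share or more: ADAMTS9 0.078, HBE4 0.81, COL1A1 0.92. HBE4 was 0.66 at matched depth, 0.64 at SOX2 of 2 UMI or more and 0.66 with neuron genes at 0 UMI, and COL1A1 0.63 at SOX2 of 2 UMI or more. Without replicate 2, where 1 sum a side leaves no test, HBE4 was 0.36, KCNIP4 0.57 and COL1A1 0.43, against -6.83, -6.39 and -3.53 without replicate 1; the other 79 genes, and all 82 without replicate 1, kept their direction. The cause was not tested. The fit on OTX2-positive barcodes and the interaction of GFP with region were not run, since GFP-zero sums would hold 2 and 0 OTX2-positive barcodes. The GFP-zero side is 67 barcodes, and its depth limits every fold of a scarce gene.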
